A study of Mus musculus with 17 samples.

Results

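Whole kidneys in which the stromal lineage carried an activated form of beta-catenin were compared with wild-type kidneys by bulk RNA sequencing, gene by gene across the transcriptome. The comparison used 11 of the 17 libraries of the study: 5 from Foxd1-Cre kidneys, the mutants (replicates 1 to 5), and 6 from wild-type kidneys, the controls (1 to 6). All were taken by column name from the deposited table. These 11 had 5312 to 5807 of 24432 gene IDs at 0, against 7590 to 7891 in the other 6 libraries, which were not used here except where stated. All kidneys were dissected in mid-gestation, at E12.5, from mice whose strain is labelled as mixed. The mutant genotype is labelled Ctnnb1-delta3 c/+;Foxd1, that is, a single conditional copy of Ctnnb1 that loses exon 3 in cells with a history of Cre expressed from Foxd1, and the control genotype is labelled Wild-type. The labels do not state whether the controls carried Cre, which Foxd1-Cre allele was used (the allele in common use replaces a copy of Foxd1), or whether the libraries of a group came from separate embryos. P-values therefore measure only the spread between these libraries.

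Beta-catenin, encoded by Ctnnb1, carries the canonical Wnt signal. Without a Wnt ligand a destruction complex built on Axin and APC marks it for breakdown through sites that exon 3 encodes, and once those sites are gone the protein persists, enters the nucleus and activates transcription with Tcf and Lef proteins. In the embryonic kidney Foxd1-expressing cells are the progenitors of the stroma, the connective tissue around the nephrons and collecting ducts that also yields pericytes, vascular smooth muscle and mesangium. Cortical stroma borders the nephron progenitors, and medullary stroma lies deeper, between the ducts.

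Expression was given as FPKM, which is fragments scaled to transcript length and to the total of mapped fragments. A gene was kept where it reached 1 FPKM in at least 3 of the 11 libraries, which left 13463 genes, and was called where limma gave an adjusted p under 0.05 on log2(FPKM + 1). Changes are the Foxd1-Cre mean minus the wild-type mean on that scale, with the standard error (SE), and they understate the change of genes at low levels. Errors on FPKM are standard deviations (SD) over 5 and 6 libraries. Beside a list or gene whose calls changed, values are given for a fit with an erythroid score, the mean log2 value of erythroid genes, as a covariate, and for a fit with all 9 wild types of the study, which adds 3 from the less deeply sequenced libraries. In whole kidneys fewer cells of a type and less RNA per cell cannot be told apart. Total FPKM per library ran from 857705 to 963729, and the steps between values corresponded to 29400000 to 37700000 reads. The groups lay apart on the first principal component, which held 28.6% of the variance (15 to 22.2 against -26.3 to -10.9). The second held 14.8% and set wild-type replicate 5 apart at 33.3, against -12.8 to 9.26 in the other 10 libraries. In that replicate small RNAs made up 15.6% of FPKM, against 4.48% to 9.54% elsewhere. Globin genes made up 0.403% to 0.696% of FPKM in Foxd1-Cre libraries and 0.506% to 0.907% in wild types. By Xist and Ddx3y, mutants 3 and 5 and controls 2 and 6 were female and the other 7 libraries male.

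**Figure D1:**
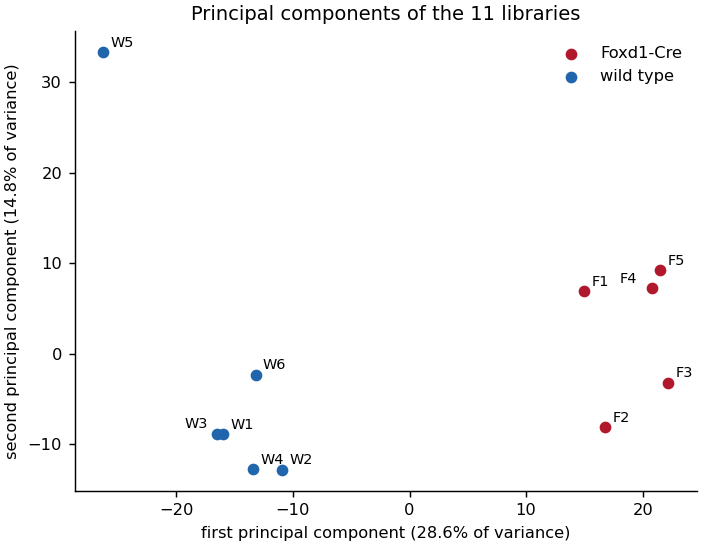
First and second principal components of log2(FPKM + 1) over the kept genes, 1 point for each library (F, Foxd1-Cre replicate; W, wild-type replicate). The groups lie apart along the first component, with Foxd1-Cre libraries at 15 or more and wild types at -10.9 or less, and W5 lies apart from the other libraries along the second.

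Ctnnb1 (ENSMUSG00000006932, GRCm38 chromosome 9, 120929216 to 120960507) was at 498, 516, 507, 527 and 494 FPKM in Foxd1-Cre replicates 1 to 5, and from 402 to 500 FPKM in the wild types with a median of 463. The groups overlapped, and the change of 0.14 ± 0.05 (SE) was not called (adjusted p = 0.104). A value for the whole gene does not show the loss of exon 3, so it checks no genotype label. 

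The response leaned towards rises, and the rises were larger than the falls in their median. Limma called 1146 genes higher (8.51% of those tested) and 640 lower (4.75%), and 3427 had an unadjusted p under 0.05. Counts for gene lists below are to be read beside these shares of 8.51% and 4.75%. All 5 Foxd1-Cre libraries lay above all 6 wild types for 948 genes (7.04%) and below them for 510 (3.79%). The median change was 0.42 among genes called higher and -0.29 among genes called lower, beside -0.007 over all kept genes. A rise of at least 1 on the log2 scale was reached by 161 genes (14.0% of those called higher) and of at least 2 by 44 genes. A fall of at least 1 was reached by 29 genes (4.53% of those called lower) and of at least 2 by 2 genes, Foxd1 and the microRNA gene Mir6970, whose 0 to 7.06 FPKM against 6.64 to 20.5 FPKM may rest on few reads.

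The share of genes called higher was 14.0% at a mean under 2 FPKM and 4.71% at 100 FPKM or more, whereas the share called lower was 5.47% and 4.81% at those levels. Genes called higher had a median wild-type level of 6.97 FPKM, genes called lower one of 12.6 FPKM, and all kept genes one of 13.2 FPKM. Part of the difference at low levels is set by the filter. Of 129 genes kept although no wild type reached 1 FPKM, 109 were called higher, and of 83 kept although no Foxd1-Cre library reached 1 FPKM, 41 were called lower. Near Ctnnb1 the shares were close to those of all kept genes: of 81 kept genes within 10 Mb, 7 were called higher (8.64%) and 4 lower (4.94%). Of 91 within 10 Mb of Foxd1, 2 were called higher (2.20%) and 9 lower (9.89%). By chromosome the share called higher ran from 4.83% on chromosome 17 to 12.3% on chromosome 10, leaving out the Y chromosome, where 0 of 6 kept genes were called.

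**Figure D2:**
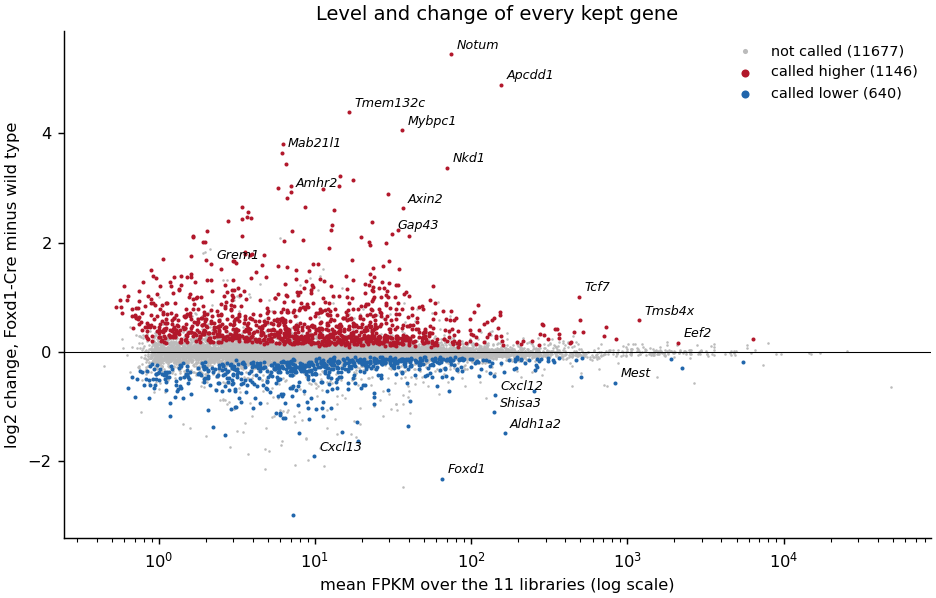
Change of each of the 13463 kept genes (vertical axis, log2 scale) against its mean FPKM over the 11 libraries (horizontal axis, log scale), with genes called higher in red and genes called lower in blue. Large rises occur from about 1 FPKM to over 100 FPKM, and falls of more than 1 are fewer than rises of that size.

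Secreted and membrane inhibitors of Wnt signalling stood at the head of the rises. Notum (ENSMUSG00000042988, chromosome 11, 120653788 to 120661175), an extracellular enzyme that removes the lipid from Wnt proteins, was at 149, 124, 162, 196 and 176 FPKM in Foxd1-Cre replicates 1 to 5, and at 2.24 to 3.66 FPKM in the wild types (median 2.57). Apcdd1 (ENSMUSG00000071847, chromosome 18, 62922231 to 62961179), a membrane protein that binds Wnts and their receptors, was at 303, 271, 327, 387 and 364 FPKM, against 8.94 to 12.3 FPKM (median 9.66). Neither gene overlapped between the groups, and in both Foxd1-Cre replicate 2 was the lowest and replicate 4 the highest of the 5. The changes were 5.45 ± 0.12 (SE, adjusted p = 1.4e-10) for Notum and 4.89 ± 0.10 (SE, adjusted p = 1.1e-10) for Apcdd1.

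Nkd1 and Nkd2 encode the Naked cuticle proteins, which bind Dishevelled inside the cell. Nkd1 (ENSMUSG00000031661, chromosome 8, 88521354 to 88594884) was at 128, 114, 139, 166 and 152 FPKM against 11.6 to 13.7 FPKM (median 12.3), a change of 3.37 ± 0.09 (SE). Nkd2 was at 24.6, 20.9, 26.9, 39.2 and 33.9 FPKM against 1.90 to 2.36 FPKM (median 2.18), a change of 3.22 ± 0.13 (SE). Wif1, a secreted protein that sequesters Wnts, was at 12, 9.05, 12.3, 13.9 and 13.1 FPKM against 0.443 to 0.839 FPKM (median 0.608). All 3 again had their lowest mutant value in Foxd1-Cre replicate 2 and their highest in replicate 4, and their groups did not overlap. Kremen1, a receptor for Dkk proteins (1.30 ± 0.07, SE), and Frzb, a secreted Frizzled-related protein (1.20 ± 0.09), also rose. Dkk1, which blocks the Lrp co-receptors, was at 3.99 to 5.14 FPKM in Foxd1-Cre kidneys and 5.37 to 9.10 FPKM in wild types and fell by 0.45 ± 0.10 (SE, adjusted p = 0.0128). Among 14 kept antagonists 7 rose and 3 fell, with a median change of 0.20. Only 1 of the 3 falls was called without mutant replicate 3 or 5 or without control replicate 3, 4 or 6. None was called with the erythroid covariate, under which Dkk1 was at -0.44 (adjusted p = 0.138), and 1 was called with all 9 wild types, with the replicate number as a block or with each library rescaled to the same total FPKM.

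Among receptors and ligands the largest rise was that of Fzd10. This Frizzled receptor gene (ENSMUSG00000081683, chromosome 5, 128600844 to 128604093) was at 31.2, 30.6, 34.6, 39.9 and 37.1 FPKM against 2.65 to 3.42 FPKM in wild types (median 2.97), a change of 3.14 ± 0.07 (SE, adjusted p = 2.1e-10). Its neighbouring non-coding gene 5930412G12Rik rose as well (1.48 ± 0.27, SE). Fzd1 was at 57.3 to 69.5 FPKM against 31.6 to 44.0 FPKM (0.78 ± 0.09, SE). Of 14 kept Frizzled receptors and co-receptors 5 rose and 0 fell, and 6 had an unadjusted p under 0.05 in limma. The rises numbered 2 with the erythroid covariate, while the median change was 0.14 against 0.13. Of 9 kept Wnt ligands 4 rose and 1 fell. Wnt5a, which acts largely outside the beta-catenin branch, was at 12.1, 11.5, 14.0, 17.2 and 13.5 FPKM against 5.13 to 7.14 FPKM (median 5.79). Wnt4 rose from 22.2 ± 2.60 FPKM (SD, n = 6) to 39.6 ± 3.40 FPKM (SD, n = 5). Wnt6 was at 3.44 to 4.65 FPKM against 4.25 to 6.96 FPKM and fell by 0.46 ± 0.11 (SE), with groups that overlapped, and its call ended with the erythroid covariate (-0.35, adjusted p = 0.226) and with all 9 wild types (-0.25, adjusted p = 0.422).

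Inside the cell, the transcriptional partners of beta-catenin parted from each other. Lef1 was at 39.5, 36.5, 43.8, 51.0 and 41.6 FPKM against 6.31 to 8.14 FPKM (median 7.37), a change of 2.38 ± 0.08 (SE). Tcf7, which encodes TCF1, was at 623, 739, 644, 649 and 730 FPKM against 247 to 433 FPKM (median 342), a change of 1.01 ± 0.12 (SE). The repressive family member Tcf7l1 went the other way (-0.22 ± 0.06, SE, adjusted p = 0.0229), with overlapping groups, and its call ended without mutant replicate 4 (adjusted p = 0.0537) or 5 (0.0653) or control replicate 3 (0.0523), as well as with the erythroid covariate (0.160), all 9 wild types (0.171) or rescaling (0.140). Tle1, a co-repressor, rose by 0.46 ± 0.05 (SE). Axin2, the inducible scaffold of the destruction complex, was at 60.1 to 77.0 FPKM against 9.57 to 11 FPKM. Of 26 kept genes of the destruction complex and its partners 5 rose (19.2%, against 8.51% of all kept genes) and 2 fell (7.69%, against 4.75%). The rises were Axin2, Lef1, Tle1, Tcf7 and Tle3. The other 19 genes were not called, and 12 of the 26 had an unadjusted p under 0.05 in limma. The 2 falls numbered 1 without mutant replicate 2 or 3 or control replicate 3, and 0 without mutant replicate 4 or 5, with the erythroid covariate or with all 9 wild types.

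Across 20 kept Wnt feedback and target genes 15 rose, 1 fell (2 without control replicate 2) and 4 were not called, with a median change of 0.93. Within that list Myc, a growth regulator, moved little (53.6 to 56.3 FPKM against 44.7 to 50.7 FPKM, 0.19 ± 0.03, SE). Ccnd1, a cyclin often named among Wnt targets, was not called (-0.19 ± 0.07, SE, adjusted p = 0.107). Sp5 (ENSMUSG00000075304, chromosome 2, 70474923 to 70477729), a zinc finger factor of the Wnt response, was at 8.00, 7.40, 8.47, 8.74 and 9.09 FPKM against 1.5 to 2.01 FPKM (median 1.71). Tnfrsf19 (ENSMUSG00000060548, chromosome 14, 60963875 to 61046490), a receptor of the tumour necrosis factor family also called Troy, was at 29.4, 32.6, 34.6, 39.0 and 38.3 FPKM against 6.76 to 7.77 FPKM (median 7.27). Edar (ENSMUSG00000003227, chromosome 10, 58600789 to 58675654), the ectodysplasin receptor, was at 2.97 to 3.51 FPKM in Foxd1-Cre kidneys and 0.203 to 0.385 FPKM in wild types.

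These last 3 genes were among the 7 protein-coding genes with a rise of at least 1 and a promoter window that held CTTTGAT, the core letters bound by Tcf and Lef proteins. Windows ran from 250 bases before to 50 bases after a RefSeq transcript start (GRCm38.p6). The 250 bases before the start are printed 5′ to 3′ along the gene, with the match in capitals, as CTTTGAT or as its reverse complement ATCAAAG. They lie at chr2:70474673-70474922 (plus strand, match 104 bases before the start), chr14:61037988-61038237 (minus strand, 202 bases before) and chr10:58675697-58675946 (minus strand, 233 bases before).
Sp5: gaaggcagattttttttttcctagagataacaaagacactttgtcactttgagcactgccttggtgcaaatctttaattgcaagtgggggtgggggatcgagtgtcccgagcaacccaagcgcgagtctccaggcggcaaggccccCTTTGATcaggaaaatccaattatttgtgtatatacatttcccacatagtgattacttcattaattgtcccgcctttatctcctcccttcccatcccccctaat
Tnfrsf19: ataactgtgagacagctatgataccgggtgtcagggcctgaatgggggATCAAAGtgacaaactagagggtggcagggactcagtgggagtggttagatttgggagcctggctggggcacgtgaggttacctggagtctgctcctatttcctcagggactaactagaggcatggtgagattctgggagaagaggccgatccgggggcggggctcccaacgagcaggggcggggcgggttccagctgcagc
Edar: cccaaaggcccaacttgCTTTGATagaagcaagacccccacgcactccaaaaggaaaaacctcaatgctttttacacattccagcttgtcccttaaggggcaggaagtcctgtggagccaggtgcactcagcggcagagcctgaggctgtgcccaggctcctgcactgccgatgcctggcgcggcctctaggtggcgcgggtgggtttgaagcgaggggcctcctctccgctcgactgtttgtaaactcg
Such matches were no more than a description of the letters present. Of 9798 kept protein-coding genes with a window, 3.10% held CTTTGAT on either strand and 6.93% held it or CTTTGAA, which differs in the last base. Among genes called higher with a window the shares were 3.62% and 7.96%, and among genes called lower they were 3.09% and 7.06%. Among the 109 protein-coding genes with a rise of at least 1 and a window they were 6.42% and 8.26%. A match in any window of a gene counted, and these 109 had a mean of 1.47 windows, against 1.29 for all kept protein-coding genes. Masp2, which fell by 1.17 ± 0.22 (SE), also held CTTTGAT. Over all 32851 windows in the RefSeq table, counted by window and not by gene, the shares were 3.73% and 8.65%. Of the 18 largest rises by the naming rule 14 had a window, and 0 of those 14 held either motif.

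**Figure D3:**
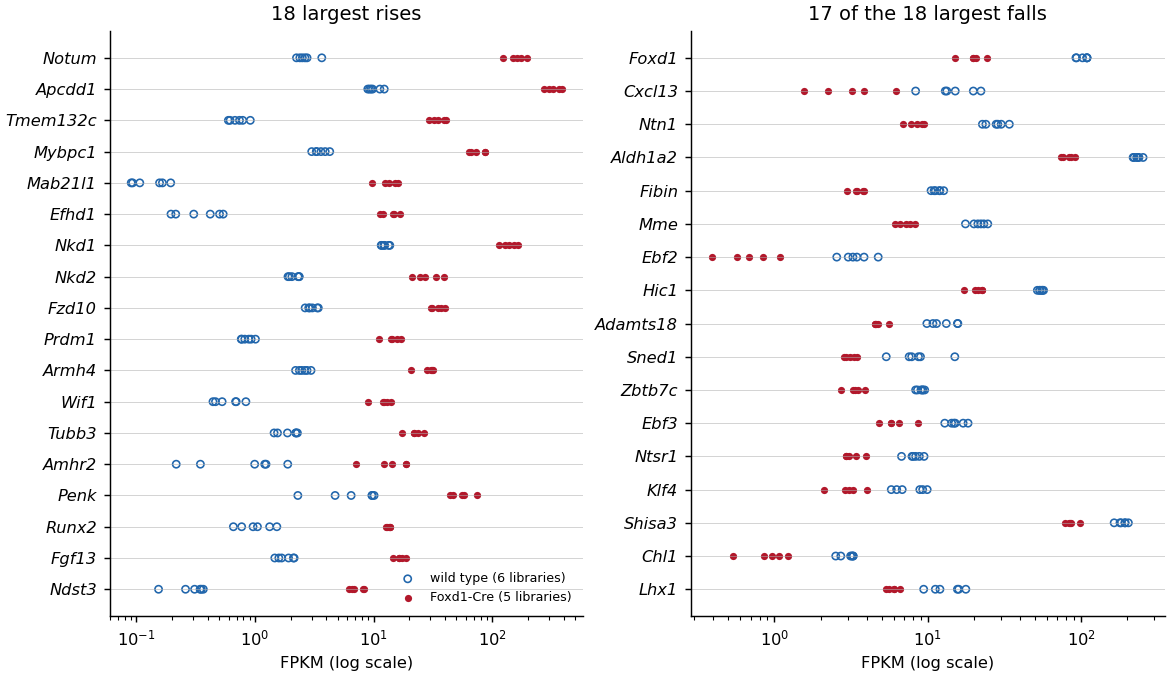
FPKM in each library (horizontal axis, log scale) for the 18 largest rises (left) and 17 of the 18 largest falls (right) by the naming rule, with Foxd1-Cre libraries as filled red points and wild types as open blue circles. The rule took only genes whose groups do not overlap, so the gap in each row is part of the choice. Notum runs from 124 to 196 FPKM against 2.24 to 3.66 FPKM, and Foxd1 from 15.0 to 24.3 FPKM against 92.4 to 109 FPKM.

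Beyond the Wnt pathway, the largest rises came from genes of unlike functions. Tmem132c (ENSMUSG00000034324, chromosome 5, 127241808 to 127565793), a membrane protein, was at 32.3, 29.1, 35.2, 40.7 and 39.3 FPKM against 0.597 to 0.914 FPKM (median 0.710). Mab21l1 (ENSMUSG00000056947, chromosome 3, 55782510 to 55785001), which is needed for eye and craniofacial development, was at 9.73 to 16.2 FPKM against 0.0906 to 0.195 FPKM (median 0.132). Efhd1, a calcium-binding protein of mitochondria, was at 11.4 to 16.6 FPKM against 0.196 to 0.540 FPKM. Each of these has an overlapping or antisense gene in the annotation (Tmem132cos, Nbea and Efhd1os), and counting by strand is not stated, so reads may be shared. Ndst3, an enzyme that sulphates heparan chains, was at 6.22 to 8.23 FPKM against 0.154 to 0.367 FPKM, and Fgf13, an intracellular member of the FGF family, at 14.7 to 18.9 FPKM against 1.47 to 2.14 FPKM. Armh4 rose by 3.03 ± 0.10 (SE) and Pycr1, the last enzyme of proline synthesis, by 2.00 ± 0.09 (SE). Pycr1 was the 1 member called higher of 21 kept genes of amino acid synthesis and Atf4 targets (2 without mutant replicate 4).

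Several transcription factors known from skeleton and mesenchyme elsewhere in the embryo rose. Runx2, a master regulator of osteoblasts, was at 12.7, 13.1, 13.7, 13.4 and 13.8 FPKM against 0.658 to 1.53 FPKM (median 1.01), and was nearly level among the 5 mutants. Sp7, which acts after Runx2 in osteoblasts, was at 6.00 to 8.23 FPKM against 0.396 to 0.681 FPKM. Prdm1, a zinc finger repressor, rose by 3.04 ± 0.09 (SE) and the homeobox factor Alx1 by 2.60 ± 0.09 (SE). Msx1 (1.79 ± 0.06, SE) and Msx2 (0.99 ± 0.08) rose together. Tbx2 and Tbx3, T-box repressors that lie on different chromosomes, rose by 1.03 ± 0.06 and 1.15 ± 0.06 (SE). Of 14 kept cartilage, bone and tendon genes 7 rose and 2 fell (1 with the erythroid covariate or with all 9 wild types), whereas Col2a1 (0.26 ± 0.13, SE, adjusted p = 0.240), Sox9 (0.05 ± 0.16, adjusted p = 0.883) and Alpl (0.16 ± 0.07, adjusted p = 0.166) were not called.

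Single genes known from muscle, neurons and gonad rose steeply while most markers of those tissues were not called. Mybpc1 (ENSMUSG00000020061, chromosome 10, 88518279 to 88605152), a myosin-binding protein of slow skeletal muscle, was at 63.5, 66.5, 72.7, 87.2 and 86.5 FPKM against 3.01 to 4.27 FPKM (median 3.45), a change of 4.06 ± 0.10 (SE, adjusted p = 2.1e-10). It was the 1 of 7 kept skeletal muscle markers to be called, the list's median change was 0.01, and Myf5, Pax7 and Ckm were under 0.1 FPKM in all 11 libraries. The summed FPKM of that list was 127 to 145 in Foxd1-Cre kidneys and 55.1 to 89.8 in wild types, and Mybpc1 alone differed by 71.7 FPKM between the group means.

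Tubb3, a tubulin of neurons, was at 22.1, 17.4, 22.1, 23.8 and 26.5 FPKM against 1.45 to 2.28 FPKM (median 2.05), and Gap43, a growth cone protein, at 52.0, 49.1, 55.5, 61.8 and 54.2 FPKM against 9.81 to 14.6 FPKM (median 10.9). Stmn2, a neuronal microtubule regulator, went the other way, at 2.90, 4.98, 5.93, 4.65 and 5.68 FPKM against 9.25 to 11 FPKM (median 10.2). Elavl4 (-0.17 ± 0.17, SE, adjusted p = 0.594), Nefl (-0.01 ± 0.13, adjusted p = 0.973) and Nefm (0.35 ± 0.19, adjusted p = 0.280), which mark neurons, were not called. Of 12 kept neural genes 3 were called higher and 1 lower with a median change of 0.08, and their summed FPKM was 113 to 148 against 59.8 to 69.5. Some other genes best known from neurons rose outside that list: the surface protein Thy1 (8.79 ± 0.939 FPKM, SD, n = 6, to 38.5 ± 5.55 FPKM, SD, n = 5), the glutamate receptor subunit Gria2 (0.503 ± 0.145 to 3.84 ± 0.643 FPKM) and the neurotrophin Bdnf (0.148 ± 0.0261 to 1.94 ± 0.307 FPKM). These were chosen once their values had been seen. Others fell, among them the glutamate receptor genes Grm3 (-0.83 ± 0.06, SE) and Gria4.

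Amhr2, the receptor of anti-Müllerian hormone, was at 12.2, 7.12, 14.2, 18.8 and 18.7 FPKM against 0.217 to 1.89 FPKM (median 1.10), with the widest relative spread among the 18 largest rises in both groups. It was the 1 of 5 kept adrenal and gonad markers to be called. Star (-0.00 ± 0.06, SE) and Inha (0.03 ± 0.13), which mark steroid-producing cells and gonad, were not, and Cyp17a1 and Cyp21a1 were under 0.1 FPKM in every library. Penk, the precursor of enkephalins and a marker of medullary stroma, was at 43.8, 46.3, 55.3, 74.8 and 57.9 FPKM against 2.30 to 10.1 FPKM (median 8.08). The 2 potassium channel genes with the smallest p-values, Kcng1 (2.43 ± 0.07, SE) and Kcnab1 (2.46 ± 0.08), were both under 1 FPKM in every wild type and between 5.87 and 8.56 FPKM in the mutants. Of 30 kept potassium channel genes 6 rose and 4 fell.

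In 25 genes every wild type was under 0.5 FPKM and every Foxd1-Cre library at 1 FPKM or more, and in 1 gene, the glutamate receptor Grm3, the reverse held (1.00 to 1.26 FPKM in wild types, 0.132 to 0.259 FPKM in Foxd1-Cre kidneys). These cut-offs chose the genes, so their separation is a description. Irx6, an Iroquois homeobox factor, was at 1.73, 1.47, 1.94, 2.30 and 2.19 FPKM against 0.00816 to 0.0419 FPKM (median 0.0185). Cpxm2, a carboxypeptidase-like protein, was at 3.78, 2.56, 3.28, 4.34 and 4.01 FPKM against 0.0160 to 0.0580 FPKM (median 0.0335), although its gene lies within the annotated span of Fgfr2. Chodl (3.10 to 4.76 FPKM against 0.0337 to 0.218 FPKM), the sphingomyelinase Smpd3 (4.05 to 6.64 against 0.213 to 0.342 FPKM) and Pthlh, the parathyroid hormone-like peptide (1.31 to 2.16 against 0 to 0.122 FPKM), were others. Mup11 was listed at 0 in all 6 wild types and at 2.78, 1.27, 2.41, 2.75 and 2.48 FPKM in the mutants, and Mup16 at 2.40 to 5.15 FPKM, but the major urinary protein genes are near-identical copies and their reads cannot be placed with certainty. Mir1907, also listed at 0 in the wild types, lies within Trps1 and is so short that its 7.08 to 22.0 FPKM may rest on few reads.

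Several of these genes are neighbours on the chromosome. Irx3, Irx5 and Irx6 lie in a cluster on chromosome 8, and all 3 rose, by 0.69 ± 0.10, 2.01 ± 0.09 and 1.51 ± 0.08 (SE), from wild-type levels of 2.92, 0.245 and 0.0220 FPKM. Over the genome 34 runs of adjacent kept protein-coding genes were called in the same direction with changes of at least 0.5 (32 higher, 2 lower), 6 of them with 3 or more genes. Besides the Irx run, these included Nts, Rassf9, Alx1 and Lrriq1 on chromosome 10 and Gria2, Glrb and Pdgfc on chromosome 3. How many such runs the spacing of called genes alone would give was not tested.

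Genes of cortical stroma were among the largest falls. Foxd1 (ENSMUSG00000078302, chromosome 13, 98354242 to 98359305), the forkhead factor that marks these cells, was at 15.0, 24.3, 19.8, 19.8 and 20.5 FPKM against 92.4 to 109 FPKM (median 105), a change of -2.32 ± 0.10 (SE, adjusted p = 1.7e-08). The ratio of the group means in FPKM was 0.194. Any part of this fall due to loss of 1 copy of Foxd1 in a Cre allele cannot be told apart from a change in stromal expression. Aldh1a2 (ENSMUSG00000013584, chromosome 9, 71215789 to 71296243), the main enzyme of retinoic acid synthesis in the embryo, was at 91.7, 83.5, 85.6, 76.3 and 73.3 FPKM against 218 to 253 FPKM (median 232). Ntn1, the guidance factor Netrin-1, was at 6.92, 9.39, 8.54, 9.12 and 7.79 FPKM against 22.7 to 34.0 FPKM (median 28.2). In these genes the 5 mutant values lay close together and far below the lowest wild type.

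Other factors of mesenchyme fell with them. Hic1, a repressor in mesenchymal progenitors, was at 17.2 to 22.4 FPKM against 51.8 to 56.8 FPKM (-1.36 ± 0.06, SE). The 3 early B cell factor genes Ebf1, Ebf2 and Ebf3, which encode related DNA-binding proteins, fell by 0.85 ± 0.08, 1.38 ± 0.13 and 1.18 ± 0.12 (SE). Fibin, a secreted protein, was at 2.98 to 3.86 FPKM against 10.5 to 12.7 FPKM, and Klf4 at 2.11 to 4.01 FPKM against 5.78 to 9.91 FPKM. Of 21 kept cortical stroma genes 12 fell and 4 rose, with a median change of -0.33. Of 15 kept medullary stroma genes 11 rose and 3 fell, with a median of 0.81. Both lists were chosen with earlier results of these data known, so these counts are only a description. Exceptions were present in both lists: Rarb (0.30 ± 0.04, SE) and the BMP-related ligand Gdf10 (0.87 ± 0.14) rose among cortical genes, and Sned1 (-1.21 ± 0.18) and Cdkn1c (-0.46 ± 0.05) fell among medullary genes, the last not called with all 9 wild types (-0.31, adjusted p = 0.112). Of the medullary rises, Lef1, Wnt4, Wnt5a and Wnt11 are also in Wnt lists.

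Genes of signals and surface proteins were also among the falls. Cxcl13, a chemokine, was at 1.57, 3.22, 3.85, 6.18 and 2.25 FPKM against 8.33 to 22.2 FPKM (median 14.2), the most scattered of these genes. Cxcl12, the chemokine of stromal cells, was at 88.3, 112, 123, 86.0 and 98.2 FPKM against 145 to 209 FPKM (median 174). Shisa3, an inhibitor of Wnt and FGF receptors in the endoplasmic reticulum, was at 83.2, 98.9, 85.1, 85.8 and 78.6 FPKM against 164 to 203 FPKM (median 187), a fall that sets it apart from the Wnt inhibitors that rose. The membrane peptidase Mme (-1.46 ± 0.09, SE), the matrix protease Adamts18 (-1.23 ± 0.12), the neurotensin receptor Ntsr1 (-1.11 ± 0.08) and the adhesion protein Chl1 (-1.06 ± 0.09) fell as well. Slc7a7, a carrier of basic amino acids, fell by 1.02 ± 0.07 (SE), whereas its relative Slc7a8 rose by 1.23 ± 0.11 and the bicarbonate carrier Slc4a4 by 1.32 ± 0.06.

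Measured in FPKM rather than in ratio, the 8 largest rises took in Apcdd1 (by 321 FPKM), Notum (159) and Tcf7 (337), and the 8 largest falls took in Foxd1 (-82.5) and Aldh1a2 (-150), beside abundant genes with smaller fold changes. Tmsb4x, which encodes the actin-binding thymosin beta-4, was at 1340, 1450, 1510, 1550 and 1450 FPKM against 888 to 1160 FPKM (median 939). Lgals1, a galectin of mesenchyme, was at 517, 601, 624, 720 and 588 FPKM against 391 to 447 FPKM (median 393). Mest, an imprinted gene, was at 629, 682, 683, 694 and 621 FPKM against 919 to 1010 FPKM (median 981). Groups were apart in all 3. Summed over called genes, the rises added 11500 FPKM and the falls came to -5480 FPKM. Eef2, a translation factor, changed by only 0.17 ± 0.04 (SE), and its adjusted p of 0.00817 became 0.279 with the erythroid covariate (0.08), 0.107 with all 9 wild types (0.33) and 0.0541 with the replicate number as a block.

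Growth factor pathways were tallied from lists of their ligands, receptors, inhibitors and targets. Among 50 kept TGF-beta and BMP pathway genes 24 rose and 4 fell, with a median change of 0.21. Both ligands and antagonists were among the rises. Bmp4, a ligand, was at 27.3, 24.8, 27.3, 23.8 and 28.5 FPKM against 11.5 to 18.3 FPKM (median 14.4), and Gdf7 at 1.28 to 1.87 FPKM against 0.132 to 0.462 FPKM. Grem1, a BMP antagonist, was at 2.76, 3.87, 3.51, 5.80 and 4.2 FPKM against 0.489 to 0.764 FPKM (median 0.587), and Nog (0.53 ± 0.11, SE) and Fst (0.86 ± 0.11), which bind BMPs and activins, rose too. The receptor-activated Smad1 (0.27 ± 0.04, SE) and Smad5 (0.37 ± 0.05) rose slightly. The 4 falls were those of the ligands Tgfb2 (-0.39 ± 0.09, SE), Tgfb3 (-0.45 ± 0.06) and Bmp3 and of the antagonist Chrdl1. With the erythroid covariate 16 of these 50 genes were called higher and 2 lower, and Tgfb2 was not called (-0.41, adjusted p = 0.112). Smad1 (0.16, adjusted p = 0.306) and Smad5 (0.18, 0.428) were not called with all 9 wild types, nor Nog (0.52, 0.0645) with the replicate block.

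Among FGF genes 4 of 25 rose and 5 fell. Fgfr2 was at 75.3, 70.2, 70.5, 65.8 and 71.3 FPKM against 42.1 to 51.0 FPKM (median 46.4), though its annotated span holds many other genes. Fgf8, a ligand made by nascent nephrons, was at 4.03 to 5.54 FPKM against 8.12 to 10.2 FPKM (-0.80 ± 0.08, SE), and Etv4, a target of FGF and Ret signalling, fell by 0.38 ± 0.05 (SE). The 5 falls numbered 3 without mutant replicate 1, 2 or 5 or control replicate 1 or 3, and 9 without control replicate 2. They numbered 2 with rescaling or with all 9 wild types, under which Etv4 was not called (-0.27, adjusted p = 0.102). In the Notch pathway 3 of 21 rose and 4 fell, led by the target Hes1 (29.4 to 33.0 FPKM against 39.2 to 42.4 FPKM) and the ligand Dll1 (1.84 to 2.33 FPKM against 3.06 to 4.64 FPKM). The 4 falls numbered 2 without any of mutant replicates 1, 2, 3 and 5 and control replicates 3 and 4, taken out singly, and also with rescaling, the erythroid covariate, all 9 wild types or the block. The 3 rises numbered 1 with the erythroid covariate or the block. In the Hedgehog pathway Gli2, a transcriptional effector, was at 14.4, 15.2, 14.2, 13.6 and 13.6 FPKM against 7.15 to 8.69 FPKM (median 7.94), and the co-receptor Boc fell by 0.56 ± 0.06 (SE). Of 16 kept retinoic acid pathway genes 4 rose and 5 fell: the synthetic enzymes Aldh1a2 and Aldh1a1 (-0.61 ± 0.10, SE) fell and the receptors Rarg (0.77 ± 0.09) and Rarb rose. With the erythroid covariate 2 of the 16 rose and 2 fell, with all 9 wild types 3 rose and 3 fell, and with the block 2 rose and 5 fell.

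Igf and imprinted growth genes fell in 6 and rose in 3 of 21 cases, with a median of -0.20. H19, an imprinted non-coding RNA, was at 1870, 2000, 2160, 1980 and 1950 FPKM against 2240 to 2550 FPKM (median 2480), and Cdkn1c, an imprinted cell cycle inhibitor, at 387 to 453 FPKM against 519 to 617 FPKM. The rises in this list were binding proteins, among them Igfbp4 (0.33 ± 0.06, SE) and Igfbp2 (0.44 ± 0.10). A single member rose with the erythroid covariate, and Igfbp2 was at 0.56 (adjusted p = 0.0502). H19 was not called with all 9 wild types (-0.17, adjusted p = 0.338), nor was Cdkn1c. Of 19 kept Hippo pathway genes 3 rose (15.8%, against 8.51% of all kept genes) and 2 fell (10.5%, against 4.75%). The coactivator Wwtr1 (0.32 ± 0.06, SE) and its partner Tead1 (0.39 ± 0.06) were among these rises. With the erythroid covariate or with all 9 wild types 1 Hippo gene rose and 0 fell. Tead1 was then at 0.29 (adjusted p = 0.0754) and 0.15 (0.588), and Wwtr1 was at 0.23 (0.148) with all 9. Hox genes, which mark position along the body axis, fell in 12 of 35 cases and rose in 0, with a median of -0.18 and 19 of 35 at an unadjusted p under 0.05 in limma. Their falls were small, such as Hoxa2 (-0.47 ± 0.08, SE), Hoxc4 (-0.41 ± 0.07) and Hoxb7 (-0.20 ± 0.03). With each library rescaled to the same total FPKM 10 fell and 1 rose, with the erythroid covariate 4 fell and 1 rose, and with all 9 wild types 6 fell and 0 rose. Hoxa2 (-0.40, adjusted p = 0.0690) and Hoxc4 (-0.38, 0.0505) were not called with the covariate, nor Hoxb7 (-0.13, 0.296) with all 9. Without control replicate 5 a single Hox gene was called higher.

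**Figure D4:**
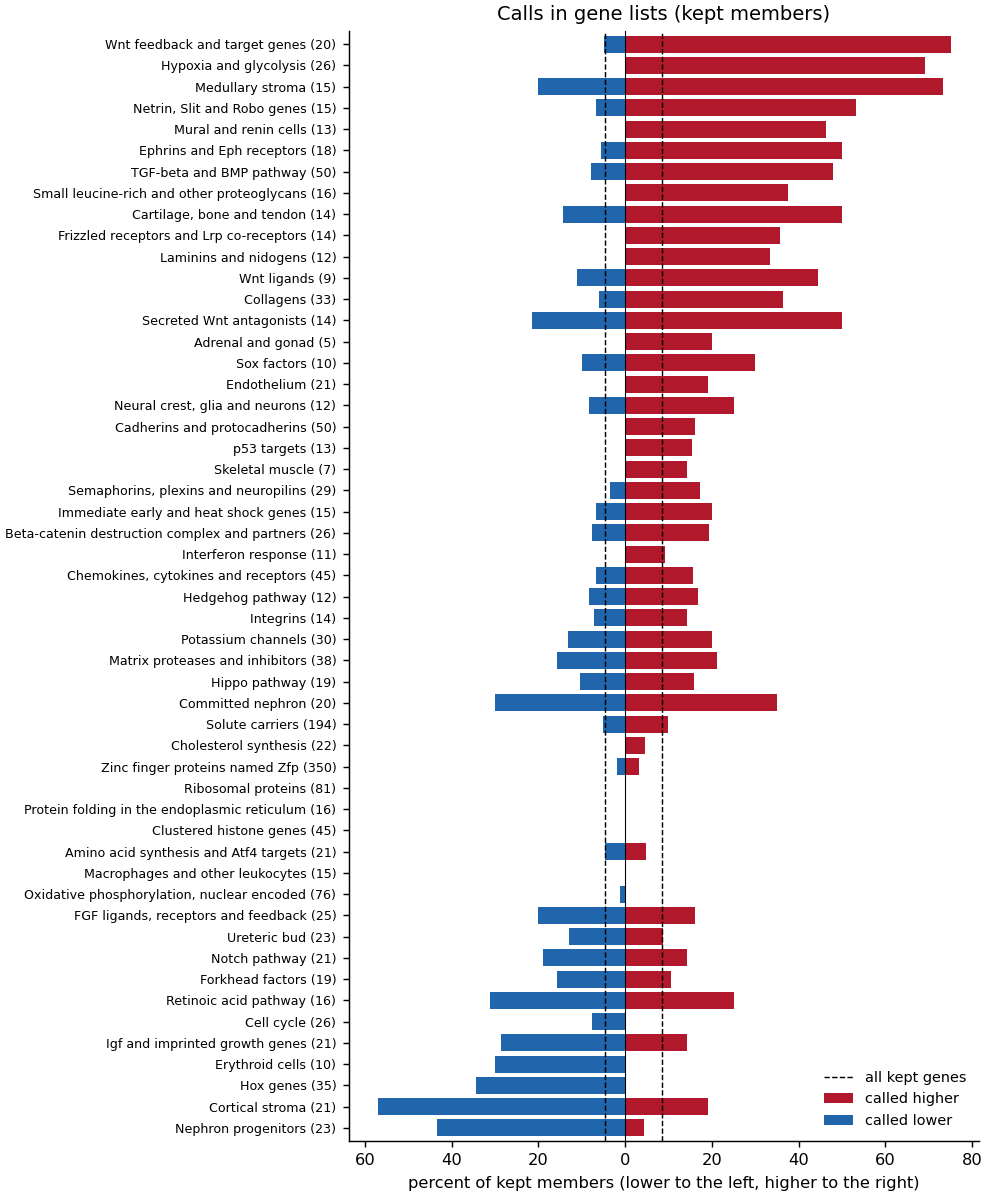
Percent of the kept members of each gene list called higher (red, to the right) and called lower (blue, to the left), with the number of kept members in brackets and the shares over all kept genes, 8.51% and 4.75%, as dashed lines. Wnt feedback and target genes, medullary stroma and hypoxia and glycolysis genes reach furthest to the right, and cortical stroma and nephron progenitors furthest to the left, while ribosomal protein, histone and protein folding genes show no bar. The lists were chosen with earlier results of these data known.

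Axon guidance and adhesion genes were tallied next. Ntng1, a membrane-anchored netrin relative, was at 8.96, 10.4, 12.1, 13.0 and 12.9 FPKM against 1.81 to 2.22 FPKM (median 1.99). Dcc, a receptor for Netrin-1, was at 3.68, 3.54, 3.54, 3.25 and 3.50 FPKM against 0.723 to 1.22 FPKM (median 1.17), and the related receptor Unc5d rose by 1.21 ± 0.08 (SE). Thus Dcc and Unc5d rose while the ligand gene Ntn1 fell. Robo1, the Slit receptor, was at 31.5 to 33.4 FPKM against 12 to 18.5 FPKM, and was not called with all 9 wild types (0.68, adjusted p = 0.0557). Of 15 kept netrin, Slit and Robo genes 8 rose and 1 fell, with a median of 0.34. Of 18 kept ephrins and Eph receptors 9 rose and 1 fell, among them Epha7 (1.02 ± 0.09, SE), Epha3 (0.96 ± 0.12) and Efnb2 (0.66 ± 0.05), with Efna5 the fall (-0.72 ± 0.08), joined by 1 more without control replicate 5. The secreted semaphorins Sema3a (1.5 ± 0.13, SE) and Sema3c (0.74 ± 0.09) rose. Of 29 kept semaphorins and their receptors 5 rose (17.2%, against 8.51% of all kept genes) and 1 fell (3.45%, against 4.75%). That fall, of Sema3f (-0.16 ± 0.05, SE, adjusted p = 0.0487), was not called without any of mutant replicates 2, 3 and 4 or control replicates 1, 3, 5 and 6, taken out singly, nor with rescaling, the erythroid covariate or all 9 wild types.

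Cadherins rose in 8 of 50 cases and fell in 0 (21 had an unadjusted p under 0.05 in limma). With all 9 wild types 5 rose, and 1 fell without mutant replicate 1 or 4 or control replicate 5, or with the block. Cdh22 was at 6.80, 4.59, 7.13, 7.26 and 7.51 FPKM against 0.642 to 1.02 FPKM (median 0.726). Cdh6, a cadherin of nascent nephron epithelium, was at 12.3, 12.6, 13.9, 16.6 and 13.3 FPKM against 4.91 to 6.89 FPKM (median 5.43). In the matrix, 12 of 33 kept collagens rose and 2 fell, with a median of 0.30, and 6 of 16 proteoglycans rose with 0 falls (7 of 16 at an unadjusted p under 0.05 in limma). Sdc2, a heparan sulphate proteoglycan of the cell surface, was at 62.3, 63.5, 72.0, 84.2 and 67.4 FPKM against 13.8 to 16.1 FPKM (median 15.9). Bgn, a small matrix proteoglycan, rose by 1.10 ± 0.10 (SE), Col11a1 by 1.09 ± 0.13 and Col18a1 by 0.95 ± 0.13. Wild-type replicate 5, the library that stood apart, had the lowest wild-type value of Col18a1 (24.6 FPKM, against 36.2 to 45.1 FPKM) and of Nid2 (16 FPKM, against 22.2 to 26.0 FPKM). Its part in the matrix counts can be read from the fit without it, in which the number of collagens, laminins or proteoglycans called higher did not move by over 1.5 times, while 1 laminin or nidogen and 1 proteoglycan were called lower in place of 0. Nid2 was not called with the erythroid covariate (0.53, adjusted p = 0.0728).

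Smooth muscle genes varied widely among the mutants. Acta2, smooth muscle actin, was at 12.4, 25.8, 39.4, 36.9 and 27.6 FPKM against 4.86 to 9.41 FPKM (median 8.25), a change of 1.68 ± 0.26 (SE, adjusted p = 0.00109). Cnn1, calponin, was at 1.49, 3.18, 3.39, 3.46 and 2.44 FPKM against 0.195 to 0.774 FPKM (median 0.442), and Tagln at 14.5, 23.1, 39.4, 30 and 26.1 FPKM against 5.95 to 15.4 FPKM (median 9.58). Foxd1-Cre replicate 1 was the lowest mutant in all 3, and in Tagln it fell inside the wild-type range. Myocd, the coactivator that switches on these genes, was at 2.08 to 3.15 FPKM against 0.463 to 0.581 FPKM. Of 13 kept mural and renin cell genes 6 rose and 0 fell (9 at an unadjusted p under 0.05 in limma), and 1 fell without control replicate 3 or 4.

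Genes known from the neighbouring nephron lineage, in which the activated allele was not targeted, changed in both directions. Whole kidneys do not show in which cells they changed. Of 23 kept nephron progenitor genes 10 fell and 1 rose, with a median of -0.22. The falls numbered 6 and the rises 0 with the erythroid covariate, with a median of -0.26, and with all 9 wild types 5 fell and 0 rose. Gdnf, the ligand that drives branching of the ureteric bud, was at 16.2, 11.8, 15.1, 13.7 and 15.3 FPKM against 17.1 to 22.2 FPKM (median 20.7). Cited1, which marks the least committed progenitors, was at 35.5, 28.6, 27.7, 36.0 and 25.6 FPKM against 36.9 to 50.7 FPKM (median 47.1), and was not called with the erythroid covariate (-0.49, adjusted p = 0.0945). Meox1 fell by 0.95 ± 0.16 (SE) and Sall1 by 0.43 ± 0.06. Six2 was at 91.8, 90.7, 88.1, 95.4 and 83.2 FPKM against 93.0 to 125 FPKM (median 111), with overlap between the groups. Its fall of 0.27 ± 0.07 (SE, adjusted p = 0.0276) was not called without mutant replicate 2 (0.0531), 3 (0.0670) or 5 (0.0767) or control replicate 4 (0.0562) or 6 (0.0574). Nor was it called with all 9 wild types (-0.13, adjusted p = 0.501), the erythroid covariate (-0.20, 0.311) or rescaling (-0.23, 0.111).

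Of 20 kept genes of the committed nephron 7 rose and 6 fell. Among these rises, Wnt4 is also in the medullary stroma list. Lhx1, a factor of the renal vesicle, was at 6.00, 5.35, 6.03, 5.59 and 6.60 FPKM against 9.40 to 17.7 FPKM (median 13.8), and its antisense neighbour Lhx1os fell by 0.94 ± 0.18 (SE). Pax8 was at 13.6 to 15.6 FPKM against 20 to 30 FPKM. Tmem100, in contrast, was at 10.2 to 13.6 FPKM against 3.74 to 5.71 FPKM. Of 23 kept ureteric bud genes 2 rose (8.7%, against 8.51% of all kept genes) and 3 fell (13.0%, against 4.75%), with a median of 0.00. The rises were Krt19 and Wnt11, which is also in the medullary stroma and Wnt ligand lists. The 2 rises numbered 1 without mutant replicate 2 or 5 or control replicate 3, 4 or 5, and 4 without mutant replicate 4. Under the erythroid covariate 1 rose and 4 fell, and with all 9 wild types 3 rose and 1 fell.

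Endothelial genes were called higher in 4 of 21 cases and lower in 0 (12 at an unadjusted p under 0.05 in limma), but that count was 1 without any of mutant replicates 2 to 5 and control replicates 1, 3 and 6, taken out singly, and 7 without mutant replicate 1. The count was 2 with the erythroid covariate. Pecam1 (0.29 ± 0.08, SE) had overlapping groups, and its call ended without any of mutant replicates 2 to 5 and control replicates 1, 3, 5 and 6, taken out singly (adjusted p from 0.0502 to 0.0890), and with the erythroid covariate (0.0679). Flt1, a receptor of vascular endothelial growth factor, was at 5.4 to 6.78 FPKM against 3.57 to 5.02 FPKM, and was not called with the erythroid covariate (0.37, adjusted p = 0.0894) or all 9 wild types (0.30, 0.0582). Macrophage genes were called in 0 of 15 cases (2 at an unadjusted p under 0.05 in limma). Erythroid genes fell in 3 of 10 cases, with summed levels of 3670 to 6440 FPKM against 4580 to 8530 FPKM. The 3 falls numbered 1 without mutant replicate 3 or 5, 5 without mutant replicate 4 and 6 without control replicate 1, with 5 under the block. Epor, the erythropoietin receptor, was at 1.99 to 2.24 FPKM against 3.03 to 3.91 FPKM, and was not called with all 9 wild types (-0.20, adjusted p = 0.522).

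Hypoxia and glycolysis genes rose in 18 of 26 cases and fell in 0, with a median of 0.31 and 24 at an unadjusted p under 0.05 in limma. Ldha, lactate dehydrogenase, was at 837, 1010, 775, 800 and 854 FPKM against 564 to 659 FPKM (median 636). Bnip3, a mitochondrial protein induced by low oxygen, was at 46.7, 66.8, 40, 37.5 and 45.5 FPKM against 23.5 to 28.8 FPKM (median 26.8). Foxd1-Cre replicate 2 was the highest in both, as in Pgk1 (616 FPKM, against 477 to 524 FPKM in the other mutants). P4ha1, a collagen prolyl hydroxylase, was at 125 to 138 FPKM against 61.0 to 104 FPKM. Not called were Gapdh (0.12 ± 0.04, SE, adjusted p = 0.0785), Vegfa (0.42 ± 0.16, adjusted p = 0.112) and Car9 (-0.21 ± 0.13, adjusted p = 0.336). With the erythroid covariate 4 of 26 were called higher, although the median was 0.26. Bnip3 (0.63, adjusted p = 0.0560) and Pgk1 (0.27, 0.101) were then not called.

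Lists of general cell function held few calls. Ribosomal protein genes were called in 0 of 81 cases (1 at an unadjusted p under 0.05 in limma; 1 called without mutant replicate 4), clustered histone genes in 0 of 45 (6; 1 called without mutant replicate 5 or control replicate 1 or 6, or with the block), genes of protein folding in the endoplasmic reticulum in 0 of 16 (0) and mitochondrially encoded genes in 0 of 9 (1). Of 76 kept nuclear genes of oxidative phosphorylation 1 fell (2 without mutant replicate 4), Uqcrb (-0.13 ± 0.03, SE), whose call ended without mutant replicate 2 (adjusted p = 0.0545), 3 (0.0586) or 5 (0.0606), with rescaling (0.0780), with the block (0.0606) and with the erythroid covariate (0.384). Of 26 cell cycle genes 2 fell (7.69%, against 4.75% of all kept genes), among them Ccne1 (47.4 ± 3.07 FPKM, SD, n = 5, against 58.1 ± 3.34 FPKM, SD, n = 6). That count was 1 without any of mutant replicates 3, 4 and 5 and control replicates 1, 3, 4 and 6, taken out singly, and 5 without control replicate 5. It was 1 with rescaling, the erythroid covariate or the block and 0 with all 9 wild types, under which Ccne1 was at -0.12 (adjusted p = 0.536). Of 13 p53 targets 2 rose (15.4%, against 8.51% of all kept genes). They were Plk2 (0.48 ± 0.07, SE) and the cell cycle inhibitor Cdkn1a (0.56 ± 0.10), which was not called with the erythroid covariate (0.50, adjusted p = 0.0852).

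Among gene classes, 1117 of 12457 protein-coding genes rose (8.97%) and 619 fell (4.97%), beside 8.51% and 4.75% of all kept genes. Of 130 long intergenic non-coding RNAs 8 rose (6.15%) and 7 fell (5.38%). Of 161 antisense genes 6 rose (3.73%) and 3 fell (1.86%), and of 266 microRNA genes 2 rose (0.752%) and 4 fell (1.5%). Gm20319 (1.00 ± 0.16, SE) overlaps Il1rap, an interleukin receptor subunit that rose by 1.11 ± 0.11, so their reads may be shared.

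The 5 mutant libraries differed in their values over the larger rises. These genes were chosen from the same libraries and are not replicates, and the cause of the difference was not tested. Over the 161 genes that rose by at least 1, the median difference from the wild-type mean was 1.28, 1.25, 1.45, 1.57 and 1.48 in Foxd1-Cre replicates 1 to 5. Replicate 2 was the lowest of the 5 for 79 of these genes and replicate 1 for 60, whereas replicate 4 was the highest for 87, replicate 5 for 37 and replicate 3 for 22. The order was not shared by the falls: over the 29 genes that fell by at least 1 the medians were -1.30, -1.15, -1.14, -1.25 and -1.27, with replicate 1 the lowest for 11 genes and replicate 2 the highest for 13.

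**Figure D5:**
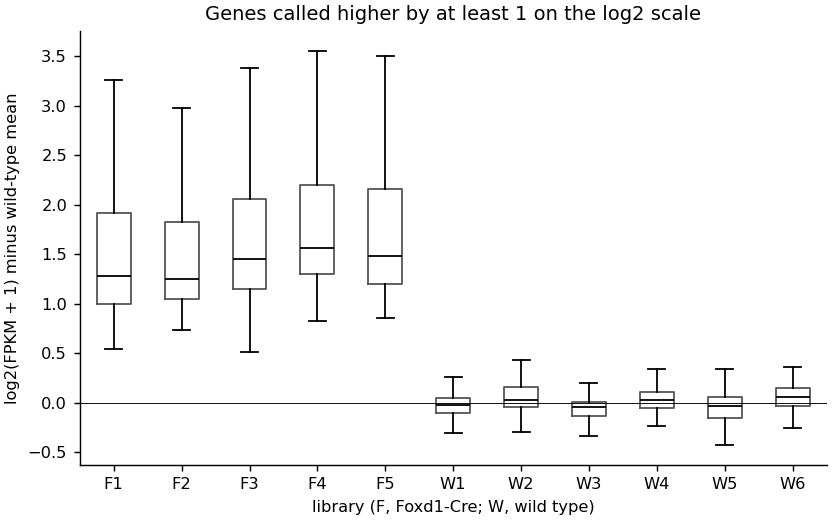
Difference from the wild-type mean of log2(FPKM + 1) in each library (F, Foxd1-Cre; W, wild type) over the 161 genes called higher by at least 1, as boxes from the lower to the upper quartile with the median as a line and whiskers to the farthest gene within 1.5 box lengths. Medians in the mutants run from 1.25 in F2 to 1.57 in F4, and the wild-type boxes lie around 0.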

How the data were processed

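RNA from dissected E12.5 kidneys was kept in RNAlater, extracted with the RNeasy Micro kit and made into libraries by Illumina methods, per the labels' protocols, which state neither strand nor selection of polyadenylated RNA. Base calls came from bcl2fastq 2.17.1.14 and quantification from Salmon on GRCm38 (mm10), per the submitters' processing notes. The authors deposited gene-level FPKM values for 24432 gene IDs; which annotation release they used, and whether libraries were scaled to each other, is not given in the sources used here, and read counts were not used here. Reads per library were read from the steps between low FPKM values and cover counting error only.

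IDs were matched to GENCODE M21 (GRCm38), and 24189 had a symbol. Values were taken as log2(FPKM + 1) for genes at 1 FPKM or more in at least 3 of the 11 libraries, and 2 group means were compared by limma 3.58.1 (R 4.3.3; intensity-dependent prior variance; two-sided), with p-values adjusted by Benjamini-Hochberg across the 13463 genes kept. The script was tested on simulated data. The erythroid score is the mean log2 value of the erythroid list. Replicate numbers did not pair the groups, so no block was used.

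Named genes were Six2, Foxd1 and Ctnnb1, the 18 genes that rose most and the 18 that fell most, the 8 largest of each in FPKM, the 3 largest of each among non-coding genes, and the 2 called members of each of 55 lists with the smallest p-values. The first 3 of these rankings took only called genes without overlap between groups and with at least 2 FPKM in the higher group. 1 gene among the largest falls is not reported here. Other genes were chosen for naming once their values had been seen. The comparison and the lists were chosen with earlier results of these data known. Of 201 genes examined singly, 104 overlap another annotated gene, and their values are uncertain because counting by strand is not stated. Promoter sequences are from RefSeq (GRCm38.p6), where 9798 of 12457 kept protein-coding genes matched. Alternatives were other pseudocounts, filters, scalings, limma settings and covariates, all 9 wild types of the study, the replicate block, and each library left out in turn.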

Additional observations from a re-analysis of the deposited data

Results flagged for a closer look

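Among the genes examined singly, 24 group values lay far from the rest of their group by Dixon's criterion, out of 402 groups of 5 or 6 libraries tested. Chance flags about 1 in 20 groups. The values are FPKM, each with the range of the other libraries of its group.

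Wild-type replicate 5 accounted for 8 of them. It was low for the basement membrane genes Nid2 (16 against 22.2 to 26.0) and Col18a1 (24.6 against 36.2 to 45.1), for the guidance genes Dcc (0.723 against 1.02 to 1.22), Robo1 (12 against 15.7 to 18.5) and Efna5 (8.00 against 10.7 to 11.8), and for the replication factor Mcm5 (79.7 against 86.9 to 89.6). It was high for Gria2 (0.795 against 0.413 to 0.479) and Hoxa4 (4.44 against 3.10 to 3.54). The call of Mcm5 (adjusted p = 0.0298) ended without any of 7 other libraries, among them Foxd1-Cre replicate 3 (0.0809).

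In the other wild types, replicate 2 was high for Bgn (31.4 against 22.3 to 25.1) and for B2m, a subunit of class I histocompatibility proteins (70.8 against 58.0 to 62.1). Replicate 6 was high for Cdh22 (1.02 against 0.642 to 0.739), replicate 3 for Edar (0.385 against 0.203 to 0.251) and replicate 4 for Epha3 (4.05 against 2.37 to 2.81).

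Among mutants, Foxd1-Cre replicate 4, which had the highest median over the larger rises, was high for Tmem100 (13.6 against 10.2 to 10.9), Myocd (3.15 against 2.08 to 2.20), Frzb (24.4 against 16.9 to 18.2) and the haem synthesis gene Alas2 (6.49 against 3.68 to 4.30). Replicate 2 was low for Cdh22 (4.59 against 6.80 to 7.51), Smpd3 (4.05 against 5.95 to 6.64) and Mup11 (1.27 against 2.41 to 2.78), and high for Hoxa4 (2.72 against 2.24 to 2.37). Replicate 1 was low for Ccne1 (42.0 against 47.9 to 49.4), and replicate 3 was high for Adamts18 (5.60 against 4.52 to 4.71) and Tead1 (25 against 23.6 to 23.8).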

How the results depend on the processing

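Over 12 other settings the count of genes called higher ran from 746 to 1329 and that of genes called lower from 283 to 733. A minimum of 5 FPKM left 750 higher, from 10364 genes tested. Rescaling each library to the same total FPKM gave 386 lower, and 75.8% of calls were then higher, against 64.2%, while the median of all genes moved to 0.024. Adding wild-type replicates 7 to 9, of the less deeply sequenced libraries, gave 793 higher and 283 lower (73.7% higher), and Aes (0.03) and Sox11 (-0.33) changed direction. When the erythroid score entered as a covariate 746 were higher and 334 lower, of which 676 and 273 were called the same way without it. Leaving out each library in turn gave 894 to 1214 higher and 468 to 731 lower. The median of the sex-linked list ran from -0.71 to 0.13 on leaving out each library, at 0.13 without Foxd1-Cre replicate 3 or 5, its female mutants, and that of Igf and imprinted genes -0.00 at a minimum of 5 FPKM. With the replicate number as a block 925 were higher and 488 lower. Same-numbered libraries deviated together only weakly (correlations from 0.00927 to 0.110), and no mutant correlated best with the wild type of its own number. Of 200 called genes examined singly, the call ended for 34 with the erythroid covariate, 30 with all 9 wild types (besides the 2 that changed direction), 11 on leaving out a library, 6 with rescaling and 5 with the block. The cause of these shifts was not tested. Values under about 1 FPKM rest on few reads in short genes.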
